A study of Mus musculus with 12 samples.

Results

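The axon guidance ligands and receptors of the mouse hippocampus were examined for RNA level and for 5-hydroxymethylcytosine (5hmC) after restraint stress. Members were the genes whose symbol begins with Epha, Ephb, Efna, Efnb, Sema, Plxn, Robo or Unc5, or is Slit, Ntn or Nrp followed by a digit, together with Dcc. The rule used names only and found 72 of the 23953 genes in the deposited RNA tables. There were 8 ephrin ligands, 14 Eph receptors, 20 semaphorins, 9 plexins, 2 neuropilins, 3 Slits, 4 Robos, 4 netrins, and 5 genes for Dcc and the Unc5 receptors. The other 3, Unc50, Unc5cl and Plxna4os1, matched by spelling alone, and Plxna4os1 is an antisense transcript of Plxna4. Gene bodies of at least 10 kb were used for 5hmC density, which kept 64 members of 13954 such genes. Members were long, with a median body of 80.7 kb against 31.9 kb for all genes of at least 10 kb. Among the 64, 31 were at least 100 kb long, while 16.7% of all genes of at least 10 kb reached that length.

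Hippocampal tissue was taken by micropunch from male C57BL/6 mice, 6 in the stress group and 5 in the control group. Stressed mice were restrained in a tube for 30 min, starting 2 h after lights on, and were then caged alone for 1 h before tissue collection. Control mice were not restrained and were killed when the restraint of the others began, so that clock time, single housing and restraint cannot be told apart. Age was tagged as postnatal day 28 and given in the protocol as 7 weeks. DNA was pooled from at most 2 mice, with 1 pool holding a single mouse, which made 3 stress and 3 control 5hmC libraries. The RNA of each group was deposited as 1 table, so that RNA differences have no replicate check. Listed peaks numbered 15195, 27797 and 31654 in the stress libraries, replicates 1 to 3 in order, and 17186, 27916 and 16327 in the control libraries. Punched tissue of mixed cells was measured, and fewer cells of a type and less RNA per cell cannot be told apart in such tissue.

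Guidance ligands steer growing axons by attracting or repelling the growth cone. Ephrins, which stay on the cell surface, bind Eph receptor kinases, semaphorins bind plexins with neuropilins as co-receptors, Slits bind Robos, and netrins bind Dcc and Unc5 receptors. In the adult hippocampus several of them remain in use at synapses, where Eph receptors and their ligands take part in spine shape and plasticity. 5hmC is made from methylated cytosine by TET enzymes and is abundant in the bodies of genes in neurons.

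Peaks were assigned to a member when their centre lay in its body, and start sites of members carried a peak about as rarely as those of other genes. Of 710 member peaks over the 6 lists, 616 had their centre in an intron (86.8%), 92 in an exon (13.0%) and 2 within 1 kb of a start site (0.3%). In genes of like length these shares were 90.9%, 8.4% and 0.7%. The exonic share was 13.5% ± 3.4 in stress and 10.8% ± 3.8 in control libraries (SD, n = 3 each), which overlapped. Those shares go by peak centres in the 64 members, while windows at start sites were scored in all 72 by any overlap with a peak. In the window from 250 bases before to 50 after a start site, 3 of 72 members had a peak in any library, Plxnb2, Sema3b and Sema3e. That is 4.17%, against 4.91% of 23893 genes. Each of the 3 had that peak in a single library, Plxnb2 in stress replicate 3 and the other two in control replicate 1. Within 1 kb to each side of a start site, 12 members (16.7%) had a peak in any library, against 15.4% of all genes.

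CG dinucleotides, where methylation and 5hmC are mainly placed, were counted in RefSeq promoters of the GRCm38.p6 assembly, which is not the mm9 build of the peaks. The 300-base promoters were available for 61 members, with 77 promoters, and their median CG count was 19, against 7 over 32851 promoters. Every promoter of a member held at least 1 CG, as did 94.6% of all promoters. Sequences are shown 5′ to 3′ on the strand of the gene, with CG in capitals. Sema3e and Plxnb2 are shown because a peak touched that window, and Ephb1 and Epha4 because they had dense and sparse peaks in the body with none at the start. The windows are chr9:102354644-102354943, minus strand, for Ephb1, chr1:77515039-77515338, minus strand, for Epha4, chr5:14025026-14025325, plus strand, for Sema3e and chr15:89173902-89174201, minus strand, for Plxnb2. The Plxnb2 window belongs to an internal start 6837 bases downstream of the first, a distance that is the same in both builds.
Ephb1: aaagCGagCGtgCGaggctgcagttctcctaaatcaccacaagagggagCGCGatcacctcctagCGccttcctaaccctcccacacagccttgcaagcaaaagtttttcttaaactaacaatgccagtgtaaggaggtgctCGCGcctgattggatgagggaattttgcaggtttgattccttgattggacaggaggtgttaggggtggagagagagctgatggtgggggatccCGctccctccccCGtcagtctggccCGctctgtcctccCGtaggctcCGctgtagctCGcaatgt
Epha4: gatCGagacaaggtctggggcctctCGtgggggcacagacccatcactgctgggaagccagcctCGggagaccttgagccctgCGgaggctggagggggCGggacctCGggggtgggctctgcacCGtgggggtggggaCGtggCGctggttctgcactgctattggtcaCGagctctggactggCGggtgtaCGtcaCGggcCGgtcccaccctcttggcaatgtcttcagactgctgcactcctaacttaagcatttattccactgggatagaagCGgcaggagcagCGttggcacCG
Sema3e: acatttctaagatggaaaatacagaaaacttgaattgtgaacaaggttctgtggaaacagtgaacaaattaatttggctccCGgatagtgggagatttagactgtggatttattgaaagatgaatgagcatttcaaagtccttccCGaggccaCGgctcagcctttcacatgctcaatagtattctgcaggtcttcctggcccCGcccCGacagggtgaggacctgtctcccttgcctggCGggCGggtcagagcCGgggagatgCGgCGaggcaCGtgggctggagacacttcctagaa
Plxnb2: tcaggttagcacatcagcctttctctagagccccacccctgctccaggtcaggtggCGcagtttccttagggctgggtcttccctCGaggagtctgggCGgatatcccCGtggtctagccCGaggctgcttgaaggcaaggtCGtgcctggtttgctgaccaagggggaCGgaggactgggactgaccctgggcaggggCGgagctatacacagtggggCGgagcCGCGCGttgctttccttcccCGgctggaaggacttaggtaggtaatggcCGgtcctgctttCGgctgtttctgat
They held 14, 17, 11 and 15 CG in that order, and 36.3%, 31.4%, 41.4% and 34.6% of all promoters held at least as many. The promoters of densely marked Ephb1 and sparsely marked Epha4 thus had similar CG counts. Nothing about methylation at these bases was measured.

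Taken as a group, the members carried about as many peaks as other genes of their length, and stress and control libraries did not separate. The 64 members held 72, 142 and 165 peaks in stress replicates 1 to 3 and 93, 147 and 91 in control replicates 1 to 3. The density was 0.0114 ± 0.00436 peaks per kb in stress and 0.00992 ± 0.00286 in control libraries (SD, n = 3 each). Because longer lists give more peaks everywhere, the peaks of each member were set against the mean density of the 200 genes nearest to it in length in the same library. The ratio of observed to expected peaks was 0.862, 0.921 and 0.955 in stress and 0.927, 0.932 and 0.967 in control libraries. The means were 0.913 ± 0.05 and 0.942 ± 0.0217, and the groups overlapped. Longer and shorter members lay on opposite sides of 1. The 31 of at least 100 kb were below 1 in all 6 libraries, 0.859 ± 0.0254 in stress and 0.896 ± 0.0272 in control. The 33 of 10 to 100 kb were above 1 in all 6, 1.31 ± 0.225 and 1.33 ± 0.16. Stress and control overlapped in both parts. Of the 64 members, 28 (43.8%) lay below the middle of their like-length genes. Of the whole families, only netrins had ratios on the same side of 1 in all 6 libraries. Other contrasts lay between classes within the Eph receptors and within the semaphorins, which were separated after the values were seen. These classes also differed in length. Median bodies were 148 kb for EphA and 24.4 kb for EphB receptors, and 155 kb for class 3 and 33.8 kb for classes 4 to 7 semaphorins. Whether class or length goes with the density was not tested.

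**Figure D1:**
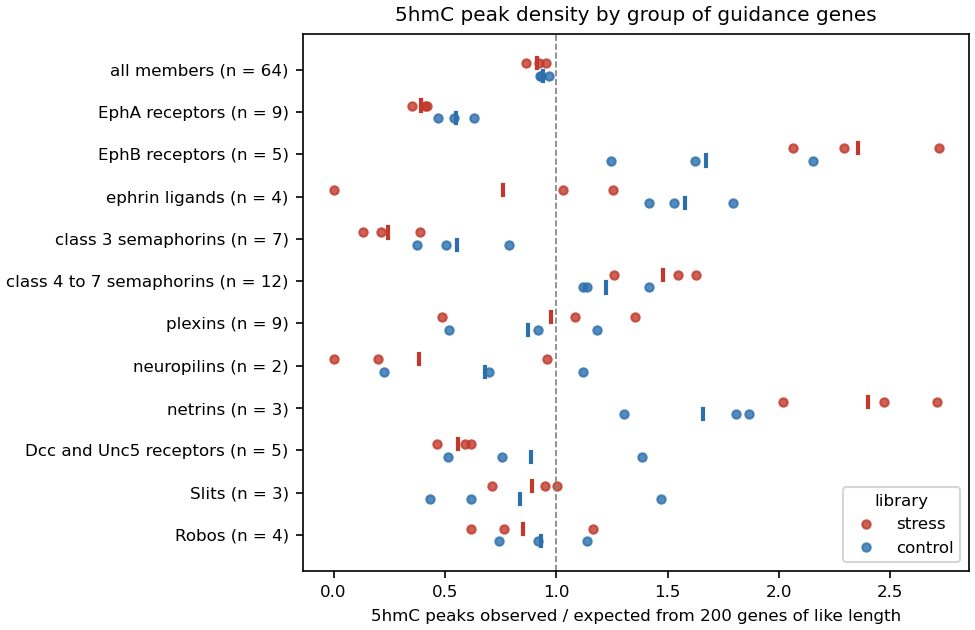
Each point is 1 library, and the horizontal axis gives the 5hmC peaks of a group of guidance genes divided by those expected from 200 genes of like length, with short bars for the means of 3 stress and 3 control libraries and n for the genes in a group. EphB receptors and netrins lie to the right of 1 in all 6 libraries, and EphA receptors and class 3 semaphorins to the left.

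Among ligands of Eph receptors, ephrins of at least 10 kb had lower relative density in every stress library. Their ratio was 0, 1.03 and 1.26 in stress libraries and 1.42, 1.79 and 1.53 in control libraries, without overlap, though they overlapped by percentage of the body covered. It rested on 4 genes and few peaks, 0, 6 and 8 against 5, 10 and 5. Efna5, a ligand that repels retinal and hippocampal axons, held most of them, with 0, 3 and 5 peaks in stress and 3, 7 and 4 in control libraries over 278 kb. Relative to genes of like length its density was 0.578 ± 0.527 in stress and 1.44 ± 0.296 in control libraries. Efna2 had at most 1 peak per library, in the same intronic region in 5 of 6 libraries, and lacked it only in stress replicate 1. The separation came with division by the reference, since stress replicates 2 and 3 had 1 peak like every control library. Efnb2, a ligand of EphB receptors, had 0, 2 and 2 peaks in stress and 1, 2 and 0 in control libraries, which overlapped. Efnb1, on chromosome X, and Efnb3 had no peak in any library, and Efnb3 is only 6.15 kb long. Other ephrins under 10 kb, which were outside the ratio, were not lower in stress. Efna1 had 1, 1 and 1 peaks in stress and 1, 1 and 0 in control libraries. Efna3 had 1, 1 and 0 against 0, 0 and 0, and Efna4 had none.

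Eph receptors split between their classes, which were separated after the values were seen. The 9 EphA receptors, which mainly bind ephrin-A ligands, had ratios of 0.353, 0.417 and 0.409 in stress and 0.631, 0.470 and 0.542 in control libraries. The 5 EphB receptors had 2.72, 2.29 and 2.06 in stress and 1.24, 1.62 and 2.15 in control libraries. EphB lay above EphA in 6 of 6 libraries, also without Ephb1, and under each of 4 other ways of measuring. Stress values of EphA lay below every control value, 0.393 ± 0.0352 against 0.548 ± 0.0807 (SD, n = 3 each), though they overlapped when measured as percentage of the body covered. Those of EphB overlapped, 2.36 ± 0.331 against 1.67 ± 0.457, but were higher in every stress library by percentage of the body covered, 3.02 ± 0.539 against 1.91 ± 0.502. Without Ephb1 the other 4 EphB genes had 1.78 ± 0.470 in stress and 0.940 ± 0.240 in control libraries, with stress higher in all 3, a separation that was lost when each list was cut to the same number of peaks or to its higher-scoring 50%.

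Ephb1, a receptor needed for axons to stay on their own side at the optic chiasm, had 12, 15 and 13 peaks in stress and 6, 13 and 10 in control libraries in its 433 kb (mm9 chr9:101824458-102257023). Its density was 2.80 ± 0.946 times that of genes of like length in stress and 2.21 ± 0.608 times in control libraries, above 98% of them on the mean of all 6. The groups overlapped. The peaks formed 30 regions, of which 8 were shared by at least 4 libraries. Regions centred 15.3 kb and 122 kb from the start were found in 5 libraries each. A region at chr9:101858930-101859900 (mm9), in an intron 398 kb from the start, was present in all 3 control and no stress library.

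Ephb2, which clusters with NMDA receptors at synapses, had 2, 4 and 6 peaks in stress and 2, 1 and 1 in control libraries (mm9 chr4:136209525-136391926). Relative to genes of like length it was 1.18, 1.35 and 1.82 in stress and 0.978, 0.298 and 0.545 in control libraries, higher in every stress library, but not against the 50 genes of nearest length. Ephb4, best known from vessels, had 1, 2 and 2 peaks in stress and 0, 1 and 0 in control libraries, so its separation rested on 6 peaks and was lost with equal list lengths and with the higher-scoring 50%. All 3 stress libraries and control replicate 2 shared a region that touched an exon, 4.24 kb from the start. Ephb3 had 0, 2 and 2 peaks in each group. Ephb6, which lacks kinase activity, had none.

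Epha4, a broad receptor for both ephrin classes and the member with the highest RNA level, had exactly 1 peak in each of the 6 libraries over 148 kb (mm9 chr1:77363760-77511663). Those 6 peaks lay at 5 places, and only stress replicate 2 and control replicate 3 shared a region, 15.0 kb from the start. Its relative density was 0.494 ± 0.195 in stress and 0.533 ± 0.146 in control libraries. Epha6, 952 kb long (mm9 chr16:59653309-60605357), had 1, 1 and 4 peaks in stress and 2, 2 and 1 in control libraries, or 0.242 ± 0.145 and 0.231 ± 0.072 of the density of genes of like length. Epha5 had 1, 0 and 0 peaks in stress and 3, 0 and 2 in control libraries over 363 kb. Epha3 had 0, 2 and 3 in stress and 2, 5 and 3 in control libraries, and its relative density was lower in every stress library, 0.325 ± 0.294 against 0.885 ± 0.181, which was lost with equal list lengths and with the higher-scoring 50%. The long Epha3, Epha5 and Epha6 weigh most in the ratio of the class, and the shorter Epha2, Epha8 and Epha10 had mean relative densities of 0.978, 1.28 and 1.20 on 2 to 4 peaks each. Epha1, the shortest at 14.8 kb, had 0.366 on 1 peak. Epha7 had 0, 4 and 2 peaks in stress and 3, 4 and 0 in control libraries, a mean relative density of 0.912.

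**Figure D2:**
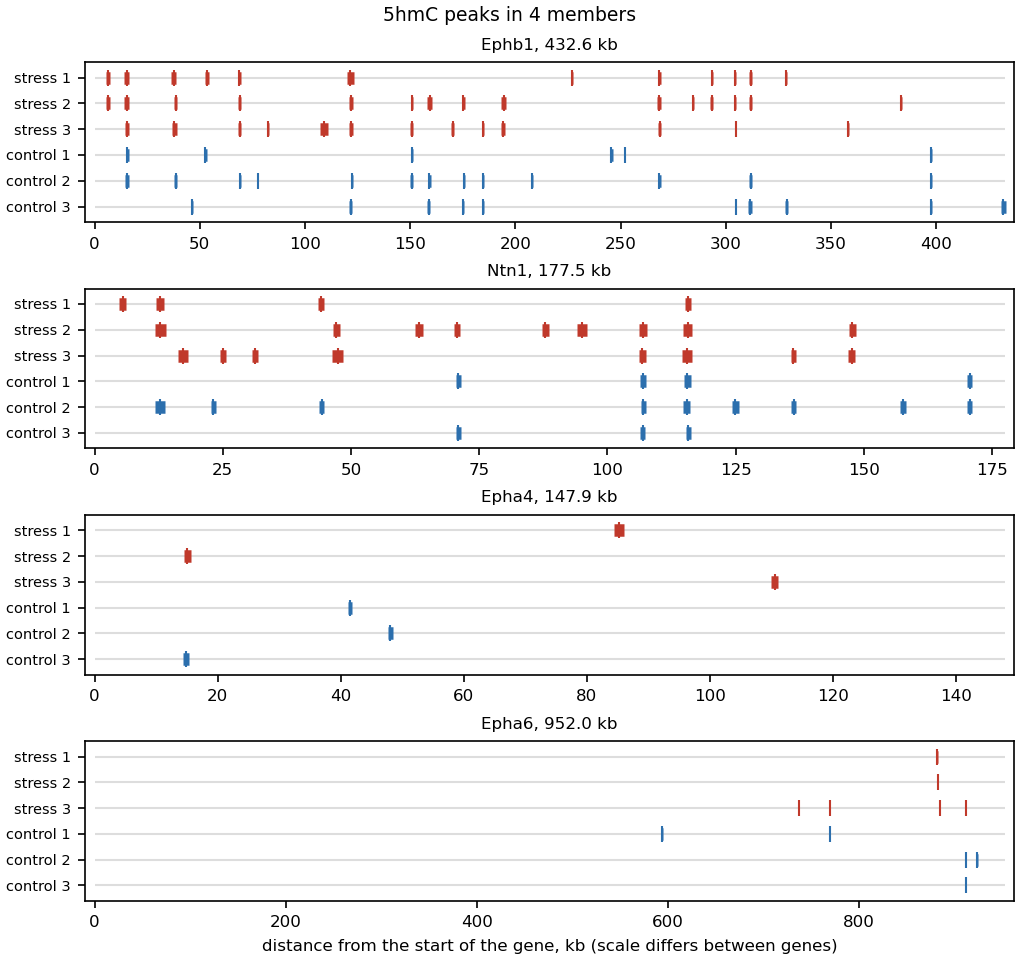
The 5hmC peaks of Ephb1, Ntn1, Epha4 and Epha6 are drawn in each library along the distance from the start of the gene in kb, on a scale of its own for each gene. Peaks are many and partly shared in Ephb1 and Ntn1, while Epha4 has 1 peak in every library and Epha6 has 1 to 4.

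Semaphorins divided by class as well. The 7 class 3 genes, whose products are secreted and act through neuropilins and plexins, had ratios of 0.130, 0.215 and 0.389 in stress and 0.789, 0.505 and 0.373 in control libraries. The 12 genes of classes 4 to 7, whose products are held at the membrane, had 1.55, 1.26 and 1.63 in stress and 1.12, 1.42 and 1.14 in control libraries. Classes 4 to 7 lay above class 3 in 6 of 6 libraries, and stress and control overlapped in both. Class 3 was lower in every stress library with equal list lengths (0.180 ± 0.0762 against 0.430 ± 0.176), with the higher-scoring 50% of each list (0.186 ± 0.0783 against 0.458 ± 0.0432) and by percentage of the body covered (0.180 ± 0.0872 against 0.405 ± 0.148). Sema3a, which repels cortical and hippocampal axons, had 1 peak in stress replicate 3 and none elsewhere over 207 kb. Sema3d had no peak in stress libraries and 3, 1 and 0 in control libraries. Sema3g had none at all.

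Sema6d, 578 kb long, had 6, 10 and 14 peaks in stress and 8, 7 and 7 in control libraries, and was 1.66 ± 0.162 and 1.46 ± 0.392 times as dense as genes of like length. Sema5a, which can attract or repel axons, had 3, 7 and 8 in stress and 2, 7 and 1 in control libraries, with overlap. Sema4b had 0, 0 and 1 in stress and 1, 2 and 1 in control libraries, lower in every stress library when set against genes of like length, but not with equal list lengths or the higher-scoring 50%. Sema4d, a ligand of plexin B receptors, held a control-only region at chr13:51845286-51847059 (mm9), in an intron 42.9 kb from its start. Sema6a, which binds A-type plexins, held an intronic region found in all 6 libraries, 58.8 kb from its start.

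The receptors of semaphorins varied widely between libraries. Plexins had a ratio of 0.975 ± 0.444 in stress and 0.874 ± 0.334 in control libraries, and neuropilins 0.385 ± 0.505 and 0.68 ± 0.447. Plxna4, a partner of neuropilins in the response to Sema3a, had 2, 6 and 8 peaks in stress and 1, 9 and 3 in control libraries. Nrp1 had 0, 3 and 1 against 0, 1 and 0, and Nrp2 0, 1 and 0 against 2, 0 and 3. Plxna1 had 1 to 2 peaks per library, and all 6 shared a region touching an exon at chr6:89306175-89307968 (mm9). Plxna3 and Plxnb3, both on chromosome X, had no peak.

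Netrins were dense in peaks, with higher values relative to genes of like length in every stress than in every control library. The 3 of at least 10 kb had ratios of 2.47, 2.71 and 2.02 in stress and 1.87, 1.81 and 1.30 in control libraries, without overlap, which became overlap with the higher-scoring 50% of each list. They held 7, 14 and 12 peaks in stress and 6, 10 and 4 in control libraries. Densities per kb not divided by the reference overlapped. Separations of families and classes were not tested. Ntn1, the ligand that draws commissural axons to the midline, had 4, 9 and 8 peaks in stress and 4, 9 and 3 in control libraries over 177 kb (mm9 chr11:68022866-68200328). Its relative density was 2.63 ± 0.388 in stress and 2.1 ± 0.514 in control libraries, which overlapped, and it lay above 98% of genes of like length on the mean of all 6. A region in an intron 116 kb from its start, chr11:68083762-68085695 (mm9), was found in all 6 libraries. Another, 107 kb from the start, was found in 5. Ntn4 held a region found in all 6 libraries at chr10:93117816-93119064 (mm9), 14.6 kb from its start. The body of Ntn3, 5.54 kb and overlapping Tbc1d24 so that their peaks cannot be told apart, had a peak in all 3 stress libraries and control replicate 2, each above 99.6%, 99.7%, 99.8% and 99.7% of its list by the authors' score.

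Receptors of netrins differed among themselves. Together, Dcc and the Unc5 genes had ratios of 0.466, 0.618 and 0.589 in stress and 1.39, 0.757 and 0.513 in control libraries, which overlapped. Dcc, which mediates attraction to netrin 1, is 1097 kb long and had 2, 7 and 7 peaks in stress and 9, 7 and 4 in control libraries. Genes of its length are few, and its reference genes ran from 488 to 2271 kb. Unc5c, which turns the response to repulsion, had 2, 5 and 3 in stress and 9, 3 and 1 in control libraries. Unc5a, 56.6 kb long and overlapping Hk3, had 1 peak in each stress library and 2, 4 and 0 in control libraries, a mean relative density of 1.91, and Unc5b had a mean of 1.16. Unc5d was sparse, with 1, 1 and 3 against 1, 3 and 2 peaks in 573 kb.

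Slits had ratios of 0.889 ± 0.155 in stress and 0.839 ± 0.553 in control libraries and Robos 0.849 ± 0.285 and 0.932 ± 0.199, with overlap. Within them Slit2 and Robo2 were sparser, with mean relative densities of 0.42 and 0.575. Slit1 (mm9 chr19:41674747-41818346) had 2, 3 and 3 peaks in stress and 0, 2 and 1 in control libraries, and its relative density, 1.29 ± 0.215 against 0.487 ± 0.425, was higher in every stress library, but not by percentage of the body covered. Slit2 had 1, 0 and 3 against 1, 1 and 3 peaks, and Slit3 had 4, 7 and 10 against 3, 6 and 9. Slit2 and Slit3, which host the microRNA genes Mir218-1 and Mir218-2, thus overlapped between groups. Robo1 had 6, 4 and 6 against 4, 4 and 7 peaks, and Robo2 had 1, 2 and 5 against 2, 8 and 2.

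**Figure D3:**
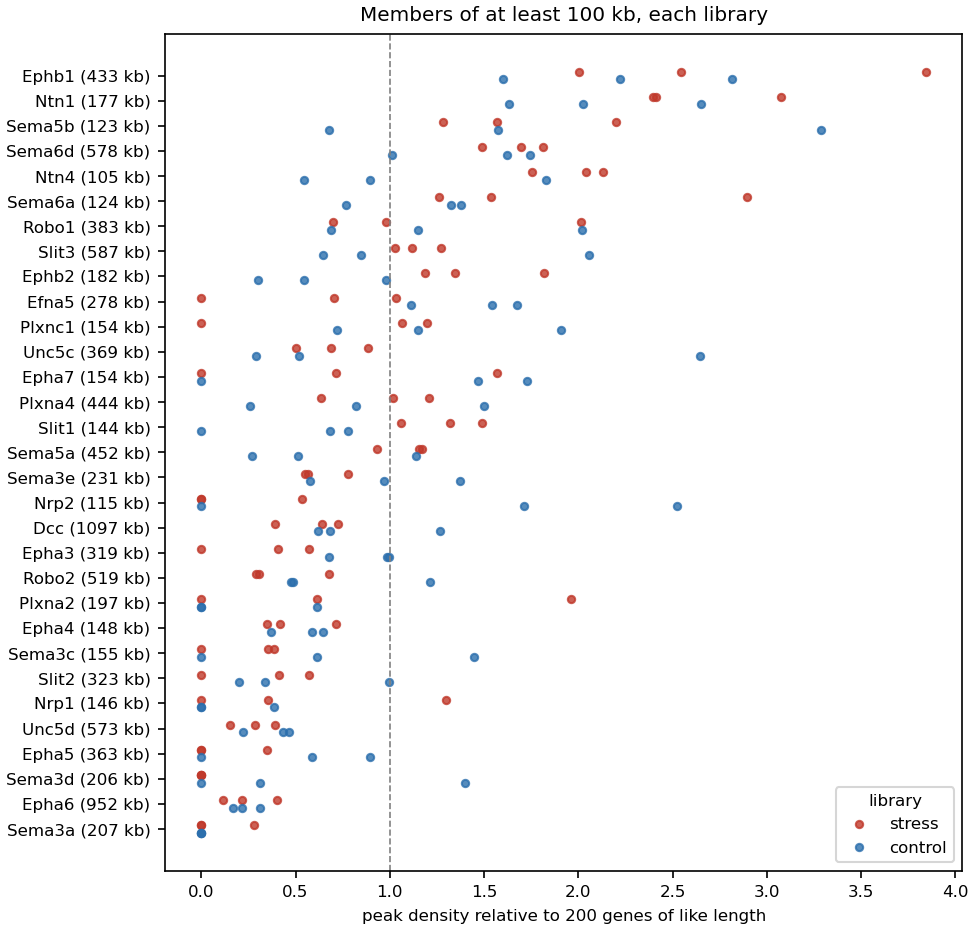
The 31 members of at least 100 kb are ordered by the mean of 6 libraries, each point being the 5hmC peak density of 1 library divided by that of 200 genes of like length. Ephb1 and Ntn1 lead, Epha5, Sema3d, Epha6 and Sema3a close the order, and the stress and control points of most genes overlap.

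Counted gene by gene, 3 of 64 members had higher relative density in every stress than in every control library (4.69%, Ephb2, Ephb4 and Slit1), against 2.98% of all genes of at least 10 kb. Another 4 were lower (6.25%, Epha3, Efna2, Efna5 and Sema4b), against 2.79%. At the share seen in genes of like length, 2.35 and 2.38 members would be counted. These shares are close to the background. The exact two-sided permutation p was 0.1 for each of the 7, the smallest that 3 against 3 libraries allow, and the smallest Benjamini-Hochberg adjusted value over 13954 genes was 1. No gene reached an unadjusted p under 0.05 in that exact test. When density was not divided by that of genes of like length, 0 members were higher and 0 lower, with 1.86% and 0.494% of all genes. Stress replicate 1, the shortest list, had no peak in Epha3, Efna2, Efna5 or Sema4b.

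Peaks present in all libraries of a single group were rare in the members. None of 64 held a region found in all 3 stress and no control libraries, where 3.52% of all genes did and 3.7 members would at the share of genes of like length. That count was 13 without stress replicate 1, when 12.9% of all genes held such a region. It was 1 (Sema5a) with equal list lengths and 1 with the higher-scoring 50%, with 2.05% and 1.83% of all genes. Control-only regions were held by 2 (3.13%, Ephb1 and Sema4d) against 1.08% of all genes and 1.56 at the share of like length. Regions found in all 6 libraries were held by 4 (6.25%, Ntn1, Ntn4, Plxna1 and Sema6a) against 4.84% and 5.42. In all, the members held 441 regions, of which 286 (64.9%) were seen in a single library, against 56.7% in genes of like length. Members without a peak in any library numbered 6 of 64, where 15.0 would at the share of like length. Efnb1, Plxna3 and Plxnb3 among them lie on chromosome X, and the reference genes were not matched by chromosome. L1cam and Pak3, genes of the pathway on chromosome X that are not members, had no peak either.

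RNA levels of the members differed little between the control and stress tables. The unit of level is FPKM, the fragments counted per kilobase of transcript relative to all fragments of the library, summed over isoforms. A mean of at least 1 FPKM was reached by 49 of 72 (68.1%), against 46.2% of all genes, and 12 reached at least 10. Differences are log2 ratios of FPKM + 1, which understate those of low genes. The median over the 49 was 0.09, against 0.08 over 11071 genes, and values ran from -0.30 to 0.43. Of the 49, 29 lay within 1.1-fold. Past a difference of 0.32 were 3 higher members (Nrp1, Sema4a and Unc5a), against 7.71% of all genes, and 0 lower, against 3.52%. With 1 table per group these are differences between tables.

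Ephrins and Eph receptors included the highest levels. Epha4 was at 51.4 FPKM in control and 52.6 in stress, Epha7 at 33.0 and 34.0, and Epha6 at 20.9 and 20.0. Efnb3, a ligand held at the membrane, was at 27.2 and 25.8. Their log2 differences ran from -0.07 to 0.04. Of the members of at least 1 FPKM, Ephb3 had the lowest difference, at 1.46 FPKM in control and 0.996 in stress (log2 -0.30), and Efnb2 was at 3.00 and 2.59 (log2 -0.16). Neither passed 0.32, which Ephb3 did with a pseudocount of 0.1 or with values centred on the median of all genes. Ephb1 was at 5.57 and 5.83 FPKM, Ephb2 at 2.34 and 2.90, and Efna5 at 1.24 and 1.29. Ephb4, under 1 FPKM, was at 0.559 and 0.165 (log2 -0.42).

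In the semaphorin system, 1 of 2 co-receptors and 1 of 13 semaphorins of at least 1 FPKM passed 0.32. Nrp1, the co-receptor for Sema3a and for VEGF, was at 16.5 FPKM in control and 21.4 in stress (log2 0.36), and Nrp2, short of 0.32, at 7.65 and 9.75 (log2 0.31). Sema4a, a ligand of plexins and of immune receptors, was at 1.05 and 1.77 FPKM (log2 0.43). Sema5a was at 16.4 and 19.5 (log2 0.24), and Plxna4 at 14.4 and 15.7. Sema3a was at 0.582 and 0.420 FPKM. The isoforms of Nrp2 exchanged their values, since those at 3.69 and 3.95 FPKM in control were near 0 in stress while others went from near 0 to 4.21 and 5.54, so that the sum alone was used. Isoforms of Sema4a also moved in opposite directions, from 0.734 to 0.208 FPKM and from 0.315 to 1.38. By most abundant isoform its log2 difference was 0.85, but its mean was under 1 FPKM and it was not counted. Ephb2, Sema4d and Slit2 were among other members with isoforms moving in opposite directions.

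Slit1 was at 13.6 FPKM in control and 16.8 in stress (log2 0.28), short of 0.32, with Slit2 at 2.94 and 3.54 and Slit3 at 5.17 and 5.57. Robo1 was at 6.03 and 6.81 and Robo2 at 7.63 and 7.89. Unc5a, a netrin receptor that signals repulsion, was at 5.6 and 7.67 (log2 0.39), and Dcc at 3.54 and 4.17. All 4 netrins were under 1 FPKM in both tables, with Ntn1 at 0.478 and 0.681. When values were centred on the median of all genes, Nrp1 and Unc5a no longer passed 0.32 and Sema4a did.

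**Figure D4:**
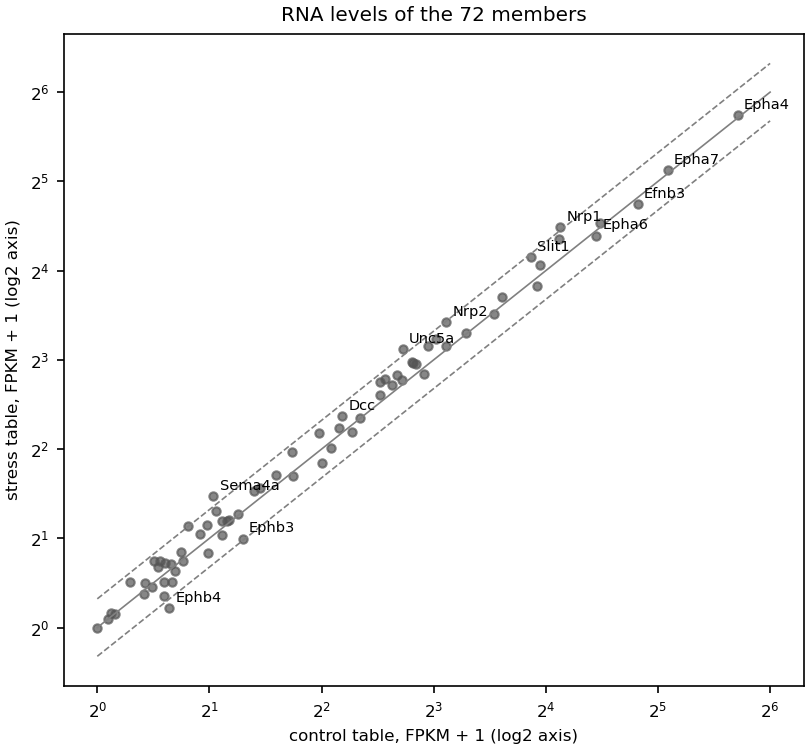
Each point is a member, with the control level on the horizontal and the stress level on the vertical axis as FPKM + 1 on log2 axes, a solid line of equality and broken lines at differences of 0.32 up and down. Points follow the solid line from the lowest level to Epha4, Nrp1, Sema4a and Unc5a lie past the upper broken line, as does Plxna3, and Ephb4 lies past the lower, both with a mean under 1 FPKM.

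Markers of other cells differed between the tables. All 6 choroid plexus markers of at least 1 FPKM were lower in stress by more than 0.32, and the 7 listed summed to 233 FPKM in control and 64.7 in stress. Of 9 oligodendrocyte markers 4 were lower by as much (sums 1439 and 1256), as were 2 of 5 endothelial markers (20.2 and 15.6). Of 6 thalamic markers 3 were higher (31.1 and 39.0). The 6 markers of hippocampal neurons were all present, with sums of 599 and 656. Ependymal markers had a median of -0.57, and the medians for inhibitory neurons, astrocytes, microglia, oligodendrocyte precursors and meninges ran from -0.01 to 0.23. The part of such cells in the differences of Nrp1, Sema4a and Unc5a was not tested.

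High RNA and 5hmC density did not go together among the members. Over 64 members Spearman's rank correlation between control FPKM and relative density was -0.06, and over all 13954 genes of at least 10 kb it was 0.31. These are descriptions across genes, which share libraries and are not replicates. Of 10 members with at least 10 FPKM, 7 (70%) lay below the middle of their like-length genes, where 36.6% of 2391 other genes did. They included Epha4, Epha5, Epha6 and Nrp1, while Plxna4 and Slit1 lay just under the middle, at percentiles of 49 and 49.5. The median percentile of the 10 was 46, against 61 for the 2391 other genes. Of 19 members under 1 FPKM, 6 (31.6%) lay below the middle, where 62.8% of 5736 other genes did, and Ntn1 and Ephb4 were among the dense ones. Between 1 and 10 FPKM the shares were alike, 15 of 35 (42.9%) and 41.5% of 5763. Whether these shares differ beyond chance was not tested. Set against genes of like length and like RNA level, the members had ratios of 0.835 ± 0.0391 in stress and 0.862 ± 0.0157 in control libraries, and Epha4, Epha6 and Ntn1 had 0.428, 0.165 and 3.65.

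**Figure D5:**
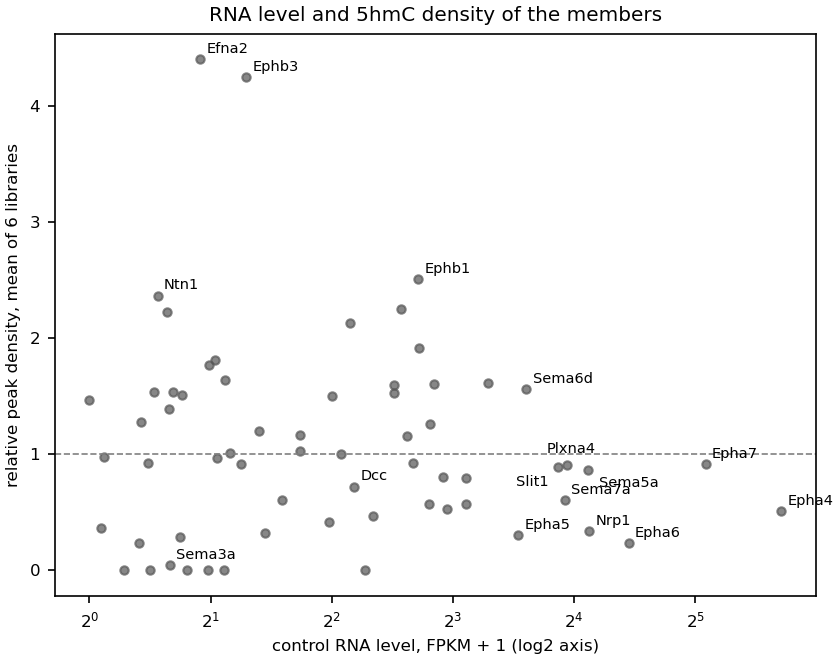
Each point is a member of at least 10 kb, with control FPKM + 1 on a log2 horizontal axis and the mean 5hmC peak density relative to 200 genes of like length on the vertical axis. Epha4, Epha6, Nrp1 and Epha5 combine high RNA with low density, Ntn1 low RNA with high density, and Efna2 and Ephb3, the highest, are short genes with few peaks.

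The other genes of the pathway, 74 adaptors, kinases, co-receptors and other signalling proteins, were also little changed in RNA. In 68 of them with at least 1 FPKM the median was 0.07. Abl2, a kinase that acts on the actin skeleton, was higher by more than 0.32, at 6.57 FPKM in control and 8.80 in stress. Pak3, a kinase downstream of Rac, and Tiam1, an activator of Rac, were at 15.4 and 14.2 FPKM in control and are listed at 0 in stress, for which no fold is given. In 69 of at least 10 kb, 0 had higher and 2 lower relative density in every stress library, against 2.98% and 2.79% of all genes. The 2 were Ntng1, a netrin-G anchored in the axon membrane, and Ptk2, the focal adhesion kinase. Stress-only regions were held by 3, Dpysl2, Nck2 and Gsk3b, and control-only regions by 2, Ptk2 and Srgap2, against 3.52% and 1.08% of all genes. Their ratio to genes of like length was 1.23 ± 0.0777 in stress and 1.27 ± 0.102 in control libraries, above that of the ligands and receptors in each of the 6 libraries, a difference that was not tested. RNA levels of the sets were unlike, since 68 of 74 pathway genes and 49 of 72 members reached 1 FPKM. The pathway genes were not set against genes of like RNA level.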

How the data were processed

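5hmC was captured from pooled hippocampal DNA by tagging with an azide-modified glucose and biotin, per the labels, and sequenced as single reads. The authors deposited 1 peak list per library with a score per peak, of at least 50. The settings of the peak calling and the exact reads behind each list are not given in the sources used here. Bowtie 0.12.9, edgeR and the mm9 build are named in the submitters' processing notes. For RNA the authors deposited FPKM per transcript in 1 table per group, without counts, so that depth is unknown. TopHat 1.0.12, Cufflinks 2.1.1 and Cuffdiff 2.1.1 are named in the same notes.

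Gene bodies ran from the lowest start to the highest end of the mm9 transcripts in the RNA tables. A peak counted for a gene when its centre lay in the body. Expected peaks came from the density of the 200 genes of nearest length, and regions were merged from peaks overlapping by at least 1 bp. FPKM were summed over isoforms, a pseudocount of 1 was added, and RNA differences were read for genes averaging 1 FPKM or more over the tables. The difference called was 0.32 on the log2 scale. Stress and control libraries were compared by an exact two-sided permutation test with 20 assignments, whose p-values measure the spread between pools. Score served only to rank peaks within a list. Deviations of same-numbered libraries from their group means were almost uncorrelated across genes, and the libraries were not paired. Genes in overlapping bodies, 20 members among them, share peaks, and no source used here says whether RNA reads were assigned by strand. Steps were tested on simulated data. Members, lists and tests were chosen with earlier results of these data known. Full values were given for the members with the highest RNA, the largest RNA differences, the highest and lowest density, group-only or fully shared regions, and a fixed set of guidance genes. The EphA and EphB split, the semaphorin classes, equal weights, leaving out Ephb1 or the 3 genes matched by spelling, and a minimum of 6 peaks were added after seeing the data. Python 3.11.15, numpy 2.4.6, pandas 2.3.3, scipy 1.17.1 and matplotlib 3.10.9 were used.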

Additional observations from a re-analysis of the deposited data

How the results depend on the processing

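The observed to expected ratio of the members was 0.901 in control libraries with equal list lengths. It was 0.833 in stress and 0.872 in control with the higher-scoring 50% of each list, 0.985 and 0.918 by percentage of the body covered (difference 0.0663), 0.835 and 0.862 against genes of like length and RNA level, 1.14 and 1.06 with each gene of equal weight (difference 0.0831), and 0.839 and 0.893 without Ephb1. Leaving out each library gave 0.891 to 0.938 in stress, 0.930 to 0.950 in control and differences of -0.0505 to -0.00409. Members with non-overlapping groups numbered 0 higher and 0 lower without division by the reference (1.86% and 0.494% of all genes). Of 35 members with at least 6 peaks, 3 were higher and 2 lower, against 6.25% and 5.73% of 4242 such genes. With a replicate block, all 3 same-numbered differences were higher in 7 members (5.91% of all genes). Across genes with at least 6 peaks, deviations of same-numbered libraries from their group means correlated at 0.0123, -0.0174 and 0.00902. With such sparse counts, these values cannot tell whether same-numbered pools were handled together. Leaving out each library gave 4 to 7 higher and 4 to 8 lower, 0 to 13 members with stress-only and 2 to 8 with control-only regions, while all genes gave 4.51% to 6.88%, 3.91% to 6.51%, 4.44% to 12.9% and 1.46% to 4.45%. Stress-only regions were held by 1 member with equal list lengths and by 1 with the higher-scoring 50%. For RNA, members past the called difference numbered 5 higher and 1 lower with a pseudocount of 0.1 (13.1% and 5.99% of all genes), 1 lower (Ephb4) with no filter (3.77%), 1 higher and 1 lower when centred (3.90% and 6.12%, median 0.0092), 3 lower by most abundant isoform (6.16%), and 0 higher at a ratio of 1.5 (1.18%). Separation of EphA receptors and of ephrins was lost by percentage of the body covered. Of the values of single members under the alternatives, 100 of group separation stayed and 17 were lost. Leaving out a library, the replicate block and the minimum of 6 peaks cannot undo a separation. Their part of the 100 was fixed in advance. Among RNA values, 39 stayed, 4 passed and 5 no longer passed the called difference. No value of either kind was called with another direction. The uncalled difference of Epha4, 0.03, was -0.05 when centred. The cause was not tested. Peak counts of 0 to 3 per gene and library limit most single members, and a library without a listed peak may still hold 5hmC there.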
